A study of Saccharomyces cerevisiae with 12 samples.

Results

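Short intergenic regions between tandem ORFs are the stretches of 0 to 300 nt that separate the stop codon of one yeast ORF from the start codon of the next ORF on the same strand. They were taken from the annotation columns of the poly(A) profiles as neighbouring ORFs on one chromosome, both on the Watson (W) or both on the Crick (C) strand, and 801 of the 5798 ORFs had such a neighbour downstream. These 801 pairs were 28.9% of the 2768 ORFs whose next ORF lay on the same strand. The region was 238 nt long in the median pair (interquartile range 200 to 270 nt), and 38 pairs had under 100 nt, 161 had from 100 to under 200 nt and 602 had 200 to 300 nt. At the edge of the rule, SPR28–RAD9 had exactly 300 nt and was included, while RPS28A–SWT1 with 301 nt and HIS3–DED1 with 302 nt were not. The next ORF began with ATG in all 801 pairs in the R64 genome sequence.

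Poly(A) sites were mapped by 3′ READS, a method that captures and sequences fragments ending in a poly(A) tail, in Saccharomyces cerevisiae strains that lack the Pol II subunit Rpb4 (rpb4Δ) or the SAGA deubiquitinase Ubp8 (ubp8Δ). The rpb4Δ strain carried RPB3::RPB3-3xFLAG NAT and RPB4::HIS3, and the ubp8Δ strain carried RPB3::RPB3-3xFLAG NAT and UBP8::HIS3, so both expressed the same FLAG-tagged Rpb3 and both carried the NAT and HIS3 markers. Cells of both strains were harvested in mid-log growth in YPD, a rich glucose medium. Each strain is given as 1 profile into which 2 biological replicates were pooled, so a difference between the strains could not be set against replicate error and no p-value is given. The deleted genes matched the labels: no read fell in the RPB4 ORF in rpb4Δ, where 0 reads leave room for up to 1.19 RPM (the unit in which the profiles scale reads to library size), against 244 reads (14.98 RPM) in ubp8Δ. The UBP8 ORF held 12 reads (4.75 RPM) in rpb4Δ and 0 in ubp8Δ, which leaves room for up to 0.184 RPM.

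In yeast, the 3′ end of an mRNA is formed by cleavage of the nascent transcript and addition of a poly(A) tail. The site is chosen by loosely defined elements, an A/T-rich efficiency element such as TATATA, an A-rich positioning element and a U-rich stretch around the cleaved base, and most genes use a cluster of sites. In tandem genes the 3′ UTR of the upstream gene and the promoter and 5′ UTR of the downstream gene have to share the same intergenic DNA, and an upstream transcript that is cleaved late carries part of the downstream coding sequence in its 3′ UTR.

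For each upstream gene the profile covers 400 nt after the stop codon, called the window here. Sites at or beyond the first base of the next ORF were counted as past its start. Because all As at the end of a read were trimmed, every site falls on a base other than A, and where genomic As follow it, cleavage may have occurred further downstream. Only the 3′ end is read, so a transcript of the upstream gene that ends inside the next ORF cannot be told apart from one of the downstream gene that ends early. The windows of the 801 pairs held 314805 reads in rpb4Δ, which was 15.9% of the reads in all ORF windows, and 1689397 reads (13.0%) in ubp8Δ. The median window held 90 reads in rpb4Δ and 504 in ubp8Δ, against 78 in rpb4Δ and 474 in ubp8Δ over all ORFs. A share was computed only for windows of at least 20 reads, which left 579 pairs in rpb4Δ and 721 in ubp8Δ, with 576 in both. In 22 pairs no read was found in either strain.

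The next ORF's start codon and the main poly(A) site of the upstream gene lay within the same 30 nt in several pairs, and these stretches are shown because they place the mapped site inside coding sequence. Coordinates are those of R64 (SacCer3). All are written 5′ to 3′ on the coding strand, and capitals mark the ATG of the next ORF, where it falls in the stretch, and the position with the most reads in ubp8Δ.
TRM9, next ORF UBX2 (chrXIII:244140-244169, W): taatcgaagATGccagtagtCaatcatgag
UBX2, next ORF ERV25 (chrXIII:246107-246136, W): aaaaaaaggATGcaggtgtTacagttatgg
YNL046W, next ORF LAP2 (chrXIV:542955-542984, W): tctaattgATGttcttgcttcCatttgtca
SWF1, next ORF ARO1 (chrIV:704481-704510, W): acgATGgtgcagttagccaaagtccCaatt
USA1, next ORF TSA1 (chrXIII:220131-220160, W): atacacaATGgtcgctcaagttCaaaagca
YER034W, next ORF EDC2 (chrV:222631-222660, W): ctctcataATGggttccgagaCaaaacatt
NVJ1, next ORF UTP9 (chrVIII:491924-491953, W): gtgcacaATGggctcctctttgGatttggt
For HYP2 the site lay deep inside the next ORF, and for RPL28 and DYN2 it lay well before the next start. No start codon falls in these 3 stretches, which are shown as the contrast.
HYP2, next ORF MTC7 (chrV:86343-86372, W): aataatatactttgtttttattcgTatttc
RPL28, next ORF YGL101W (chrVII:311973-312002, W): ttcagtttaatctaattcaacatcTacttc
DYN2, next ORF CAD1 (chrIV:1319339-1319368, C): ttaatcgataatcaattactattaTacttt
The number of genomic As directly after the marked base was 2 for TRM9, 4 for USA1 and YER034W, 2 for SWF1, and 1 for the other pairs shown. Such As could move the true end only further into the next ORF in the first 7 stretches.

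Most upstream genes ended their transcripts before the next ORF. The median share of window reads past the next start was 0% in rpb4Δ, where 357 of 579 pairs (61.7%) had none, and 0.410% in ubp8Δ (95% order-statistic interval 0.242 to 0.754), where 273 of 721 (37.9%) had none. A minority of pairs placed a large part of their signal inside the next gene. The share reached 10% in 85 pairs (14.7%) in rpb4Δ and in 175 (24.3%) in ubp8Δ. It reached 50% in 31 pairs in rpb4Δ and in 72 in ubp8Δ, and 90% in 18 in rpb4Δ and in 36 in ubp8Δ. These counts, like those by length below, cover a different set of pairs in each strain and do not compare the strains. Over the 576 pairs that reached 20 reads in each strain the mean share was 7.43% in rpb4Δ and 8.49% in ubp8Δ. Of these 576, 67 reached 10% in both strains, 17 in rpb4Δ only and 37 in ubp8Δ only. A share of 50% was reached in both strains by 24, and 198 had a share of 0 in both. The lower depth of rpb4Δ leaves more windows without a rare site, so shares of exactly 0 are not comparable between the strains.

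Summed over pairs, 7.06% of the window reads lay past the next start in rpb4Δ (95% Clopper-Pearson interval 6.97 to 7.15%) and 12.7% in ubp8Δ (12.7 to 12.8%). Here and below, intervals on reads cover counting error only, since PCR copies without molecular identifiers are not independent molecules. Few pairs carried these sums. The 10 pairs with the most such reads held 72.2% of them in rpb4Δ and 81.3% in ubp8Δ, and without them the shares were 2.07% in rpb4Δ and 2.67% in ubp8Δ. Chief among them was CTS1, which encodes the endochitinase of cell separation and lies upstream of a short ORF that is treated separately below. Without the 23 pairs whose next ORF is so short that it ends inside the window, the shares were 4.36% (4.29 to 4.44%) in rpb4Δ and 5.18% (5.15 to 5.22%) in ubp8Δ. Over all ORFs, reads inside coding sequence were 5.13% of ORF and window reads in rpb4Δ and 10.8% in ubp8Δ. This difference between the libraries moves with the shares past the next start, and its part in them was not tested.

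The shorter the region, the more reads lay past it. A shorter region leaves more of the 400 nt window past the next start, so a rise is built into this measure. Other ORFs are read at the same distances below. In pairs with under 100 nt the median share was 98.0% in rpb4Δ (12 pairs) and 98.1% in ubp8Δ (25 pairs). In pairs with 100 to under 200 nt it was 1.12% (0.0975 to 2.59%, 106 pairs) in rpb4Δ and 7.62% (3.54 to 13.6%, 137 pairs) in ubp8Δ. In pairs with 200 to 300 nt it was 0% (461 pairs) in rpb4Δ and 0.104% (0.0272 to 0.226%, 559 pairs) in ubp8Δ. High values were found at every length all the same: 10 pairs with 200 to 300 nt reached 50% in rpb4Δ, and 28 did in ubp8Δ. Just beyond the limit of the rule, in the 552 same-strand pairs with over 300 and under 400 nt, the median share was 0% in both strains. Their pooled share was 0.496% in rpb4Δ and 0.586% in ubp8Δ, against pooled shares of 2.33% in rpb4Δ and 2.57% in ubp8Δ at 200 to 300 nt. These longer regions leave less of the window past the next start.

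**Figure D1:**
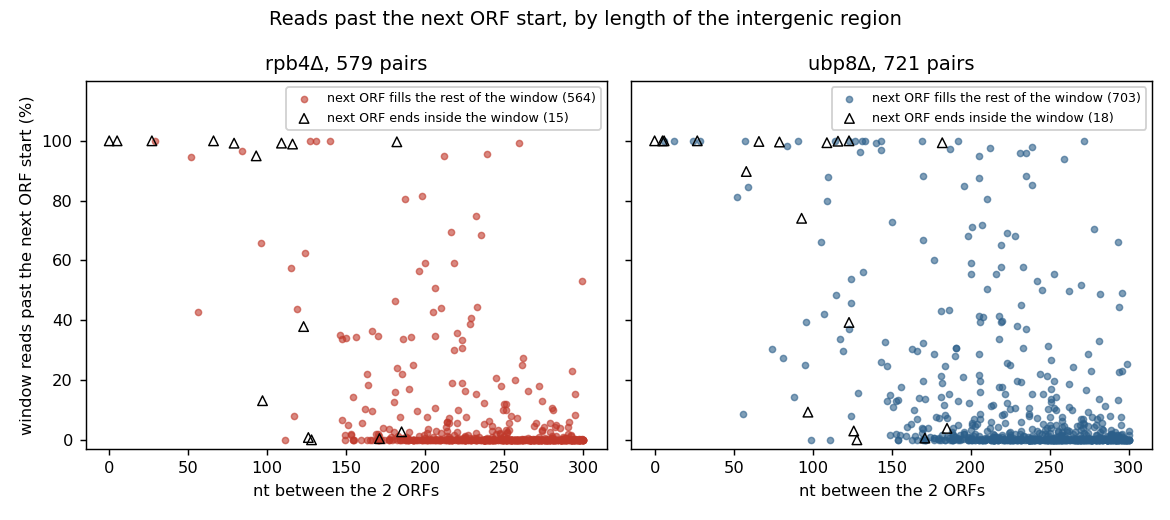
Percent of window reads past the next ORF start (y axis) against the nt between the ORFs (x axis) for each pair with at least 20 window reads, with rpb4Δ (579 pairs) on the left and ubp8Δ (721 pairs) on the right. Filled points are pairs whose next ORF fills the rest of the window and triangles are pairs whose next ORF ends inside it. Most points lie at or near 0 beyond 150 nt, while single pairs reach over 90% even at 200 to 300 nt.

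Fewer reads lay past the boundary than lay beyond the same distance after other ORFs. In the tandem pairs the mean share past the next start was 7.44% in rpb4Δ and 12.7% in ubp8Δ. ORFs whose window holds no start of a same-strand ORF were then read at the same distances from the stop codon, again with at least 20 reads. On average 16.2% of their signal lay beyond those distances in rpb4Δ (3240 ORFs) and 19.4% in ubp8Δ (3993 ORFs). The difference was present at 200 to 300 nt, where the mean was 3.67% against 11.1% in those ORFs in rpb4Δ and 7.01% against 12.9% in ubp8Δ. It was also present at 100 to under 200 nt, with 15.2% against 30.4% in rpb4Δ and 25.2% against 34.1% in ubp8Δ. Under 100 nt the means were 83.9% against 85.4% in rpb4Δ and 71.3% against 84.6% in ubp8Δ, over few pairs. Convergent ORFs, whose next ORF lies on the opposite strand, were taken at any distance, so their windows need not meet the end of that gene. Against these the pairs with 200 to 300 nt were also lower, at 3.67% against 9.83% in rpb4Δ and 7.01% against 11.2% in ubp8Δ. ORFs are not replicates, so these means are a description of the 2 profiles.

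**Figure D2:**
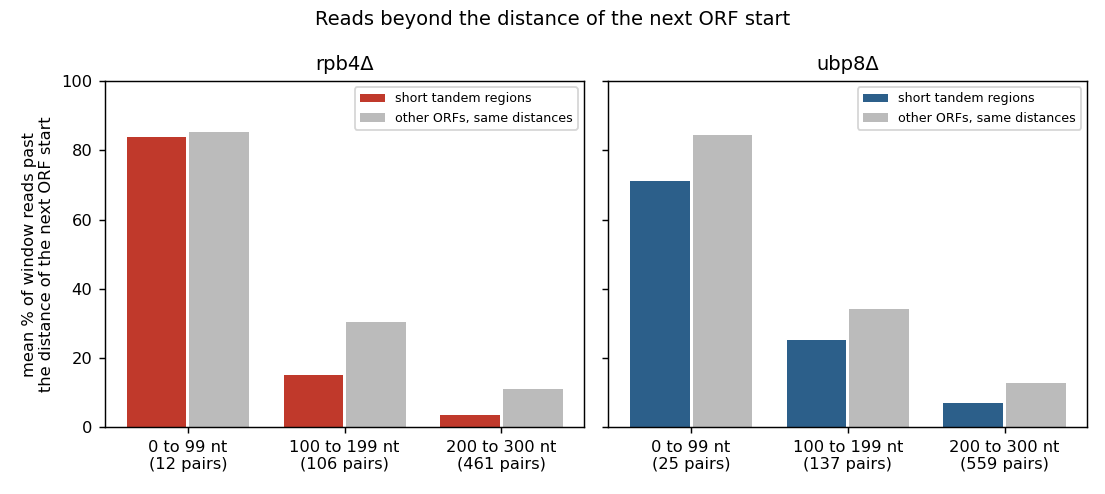
Mean percent of window reads beyond the distance of the next ORF start (y axis, from 0) by length class of the intergenic region, with rpb4Δ on the left and ubp8Δ on the right. Colored bars are the short tandem pairs (numbers below the axis) and grey bars are ORFs with no same-strand start in their window, read at the same distances; the colored bar is the lower in every class, for example 3.67% against 11.1% at 200 to 300 nt in rpb4Δ.

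The weighted average position of the upstream genes' signal, in which every read counts once, was closer to the stop codon than over all ORFs. Its median over the 576 pairs was 91.8 nt in rpb4Δ and 94.7 nt in ubp8Δ, against 122 nt in rpb4Δ and 123 nt in ubp8Δ over the 4248 ORFs that reached 20 reads in each strain. The pairs were chosen by the distance to the next ORF, and the part of that choice in this value was not tested.

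Averaged with equal weight per pair, the signal declined in steps towards and past the next start codon in the pairs with at least 100 nt between the ORFs. The decline began before the start: the zone from 100 to 51 nt before it held 11.7% of a window's reads in rpb4Δ and 10.7% in ubp8Δ. Positions nearer the next start also lie further from the stop codon, and the part of that in the decline was not tested. On average, the last 50 nt before the next ORF held 6.98% of a window's reads in rpb4Δ and 7.60% in ubp8Δ. The first 50 nt inside the ORF held 3.74% in rpb4Δ and 4.56% in ubp8Δ, and the following 50 nt held 1.11% in rpb4Δ and 2.41% in ubp8Δ. Summed reads did not follow these means in ubp8Δ. Over the last 50 nt before the ORF, its first 50 nt and the following 50 nt they were 14260, 8511 and 7234 in rpb4Δ, and 82818, 61534 and 114210 in ubp8Δ. The bin from 61 to 70 nt inside, where the highest site of CTS1 lies, alone held 4388 of them in rpb4Δ and 73299 in ubp8Δ. The decline of the means was not even. The first 10 nt of the ORF held 0.765% in rpb4Δ and 0.762% in ubp8Δ, while the bin from 11 to 20 nt inside held 1.66% in rpb4Δ and 1.55% in ubp8Δ, above both of its neighbours in both strains. In that bin reads were found in 85 of 567 pairs (15.0%) in rpb4Δ and in 121 of 696 pairs (17.4%) in ubp8Δ. UBX2, YNL046W and USA1, described below, each had a main site there, as did TRM9, whose shorter region kept it out of this average.

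**Figure D3:**
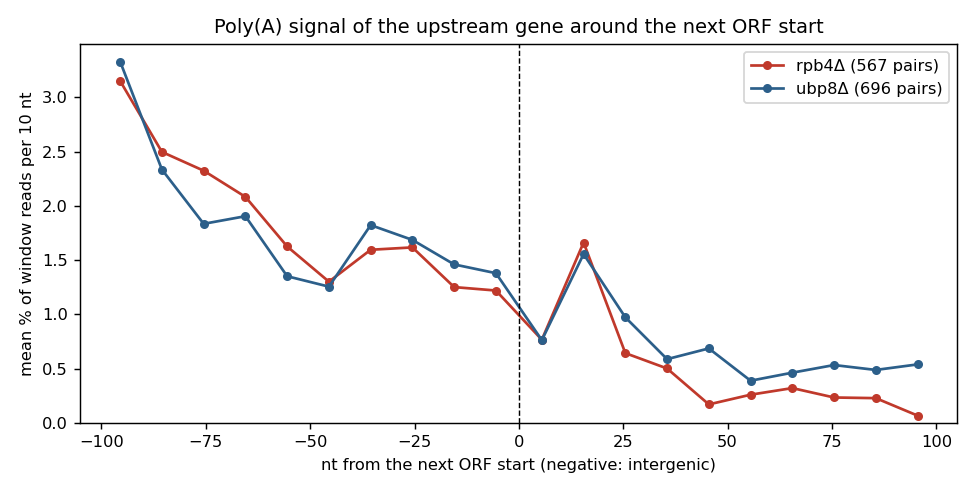
Mean percent of a window's reads per 10 nt (y axis) against the distance from the next ORF start (x axis, negative values intergenic) for pairs with at least 20 reads and at least 100 nt between the ORFs, 567 in rpb4Δ and 696 in ubp8Δ. Both lines decline towards the start codon at the dashed line and show a local high at 11 to 20 nt inside the ORF (1.66% in rpb4Δ and 1.55% in ubp8Δ).

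Sites were also less dense past the start. Before it, 4.41 nucleotides in 100 carried a read in rpb4Δ and 6.11 in ubp8Δ; past it, 0.762 did in rpb4Δ and 1.77 in ubp8Δ. At the depth of rpb4Δ, 4.62 sites per 100 nt before and 1.11 past the start would be expected in ubp8Δ, nearer to the values of rpb4Δ but above them in both zones. At least 1 site past the start was seen in 222 pairs (38.3%) in rpb4Δ and in 448 (62.1%) in ubp8Δ. The same nucleotides recurred less often past the start. Of the sites before it, 74.7% of those in rpb4Δ and 53.9% of those in ubp8Δ were found in the other strain as well, against 54.7% of those in rpb4Δ and 23.5% of those in ubp8Δ past it. The median site past the start rested on 3 reads in rpb4Δ and 7 in ubp8Δ, and the median site before it on 6 in rpb4Δ and 18 in ubp8Δ.

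Upstream of highest sites past the start, which were few, the sequence held less A and T, and the counted hexamers were less often present, than upstream of highest sites before the start. The zones themselves differ in this way: over all positions, G and C made up 33.2% before the next start and 40.4% past it. The part of this in the values below was not tested. Over the 60 nt before the highest site, A and T made up 67.2% where that site lay past the next start and 71.0% where it lay before it in rpb4Δ, and 65.5% past it and 71.0% before it in ubp8Δ. The hexamer TATATA, which reads the same on both strands, was present in 9 of 34 (26.5%) such windows past the start and 36.5% of 545 before it in rpb4Δ, and in 15 of 73 (20.5%) past it and 34.9% of 648 before it in ubp8Δ. Over all ORFs it was present in 32.5% of windows in rpb4Δ and 29.5% in ubp8Δ. AATAAA was present on the coding strand in 3 of 34 windows (8.82%) past the start and 12.3% before it in rpb4Δ and in 6 of 73 (8.22%) past it and 12.8% before it in ubp8Δ, against 12.9% in rpb4Δ and 12.7% in ubp8Δ over all ORFs. Its complement TTTATT, which can overlap the other hexamers, was present in 1 of 34 past the start and 9.36% before it in rpb4Δ and in 3 of 73 past it and 11.7% before it in ubp8Δ, against 10.5% in rpb4Δ and 10.9% in ubp8Δ over all ORFs. A stretch of at least 7 As among the 10 genomic bases after the site, which could be captured in place of a tail, followed 1.17% of the reads past the start and 2.95% of those before it in rpb4Δ, and 1.16% of those past it and 2.98% of those before it in ubp8Δ. These are shares of reads, and 10 pairs hold most of the reads past the start. Per site, the mean number of As in those 10 bases was 3.49 past the start and 3.37 before it in rpb4Δ. In ubp8Δ it was 3.38 past the start and 3.40 before it.

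Of the pairs with at least 100 reads per strain and a next ORF that fills the window, the 6 with the largest shares past the next start placed nearly all of their signal inside the next ORF in both strains. TRM9 (YML014W, chrXIII:243225-244064), a tRNA methyltransferase gene, lies 84 nt before UBX2, whose product recruits Cdc48 to the endoplasmic reticulum. Past the UBX2 start lay 2340 of 2420 TRM9 window reads (96.7%, 95.9 to 97.4%) in rpb4Δ and 8838 of 9007 (98.1%, 97.8 to 98.4%) in ubp8Δ. A single nucleotide, 12 nt inside UBX2, held 81.7% of the window reads in rpb4Δ and 88.4% in ubp8Δ. It is the capital C in the TRM9 sequence above. UBX2 is in turn the upstream gene of ERV25, which encodes a p24 cargo protein of COPII vesicles and starts 212 nt further on. Of the UBX2 window reads, 2138 of 2253 (94.9%) in rpb4Δ and 9691 of 9932 (97.6%) in ubp8Δ lay inside ERV25. They were divided between the nucleotides 11 and 13 nt inside, with 911 and 910 reads in rpb4Δ and 4034 and 3812 in ubp8Δ. Thus 2 neighbouring regions on chromosome XIII had the same arrangement, with a main site 11 or 12 nt past the next start.

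YNL046W (chrXIV:542304-542822), an ORF without an assigned function, precedes the aminopeptidase gene LAP2 by 140 nt. Inside LAP2 lay 1517 of 1520 reads (99.8%) in rpb4Δ and 16289 of 16424 (99.2%) in ubp8Δ, and the nucleotides 14 and 21 nt past the start held 860 and 382 reads in rpb4Δ and 8138 and 5157 in ubp8Δ. These reads were also nearly all that LAP2 had inside its coding sequence: the LAP2 ORF held 1525 reads in rpb4Δ and 16430 in ubp8Δ, of which 99.5% in rpb4Δ and 99.1% in ubp8Δ fell in the first part covered by the YNL046W window. At the end of LAP2 itself, its own window held 386 reads in rpb4Δ and 1237 in ubp8Δ, fewer than the YNL046W window in both strains.

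USA1 (YML029W, chrXIII:217362-219878), the scaffold of the Hrd1 ubiquitin ligase, lies 259 nt before TSA1, the main cytoplasmic peroxiredoxin gene. Inside TSA1 lay 800 of 807 reads (99.1%) in rpb4Δ and 1015 of 1080 (94.0%) in ubp8Δ. The strains used the same 2 main nucleotides in different order: 67 nt inside TSA1 led with 287 reads in rpb4Δ, where 16 nt inside held 236, while 16 nt inside led with 486 reads in ubp8Δ, where 67 nt inside held 284. Scaled to library size the USA1 window stood at 319 RPM in rpb4Δ and 66.3 RPM in ubp8Δ. The TSA1 window held 3035 reads in rpb4Δ and 11735 in ubp8Δ. The reads near the start of TSA1 were thus fewer than those at its end in both strains, by a smaller factor in rpb4Δ.

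SWF1 (YDR126W, chrIV:703234-704244), a palmitoyltransferase gene, lies 239 nt before ARO1, which encodes the pentafunctional enzyme of the shikimate pathway. Of its reads, 110 of 115 (95.7%, 90.1 to 98.6%) in rpb4Δ and 1364 of 1394 (97.8%, 96.9 to 98.5%) in ubp8Δ lay inside ARO1, spread over many nucleotides. Its leading nucleotide held 20.9% in rpb4Δ (11 nt inside) and 24.1% in ubp8Δ (23 nt inside). The first part of ARO1 covered by the SWF1 window, 161 of 4767 nt, held 40.1% of the ARO1 ORF reads in rpb4Δ and 44.3% in ubp8Δ. The other reads lay further inside ARO1. In the other 5 pairs over 94% of the ORF reads lay in the first part. That part was a larger piece of the ORF there, from 260 of 2016 nt in LAP2 to 371 of 420 nt in MTC7. What the length adds to this contrast was not tested.

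HYP2 (YEL034W, chrV:85676-86149), which encodes the translation factor eIF5A, has the shortest region among pairs with at least 100 reads per strain and a next ORF that fills the window, 29 nt before MTC7. All 767 of its window reads in rpb4Δ and all 3351 in ubp8Δ lay inside the MTC7 ORF. The leading nucleotide, 218 nt after the HYP2 stop codon and 189 nt inside MTC7, held 84.1% of them in rpb4Δ and 85.8% in ubp8Δ. The window after the MTC7 stop codon held 1 read in rpb4Δ and 7 in ubp8Δ. Very few 3′ ends were thus found after the annotated end of MTC7, and most of those between the HYP2 and MTC7 stop codons lay at 1 nucleotide.

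**Figure D4:**
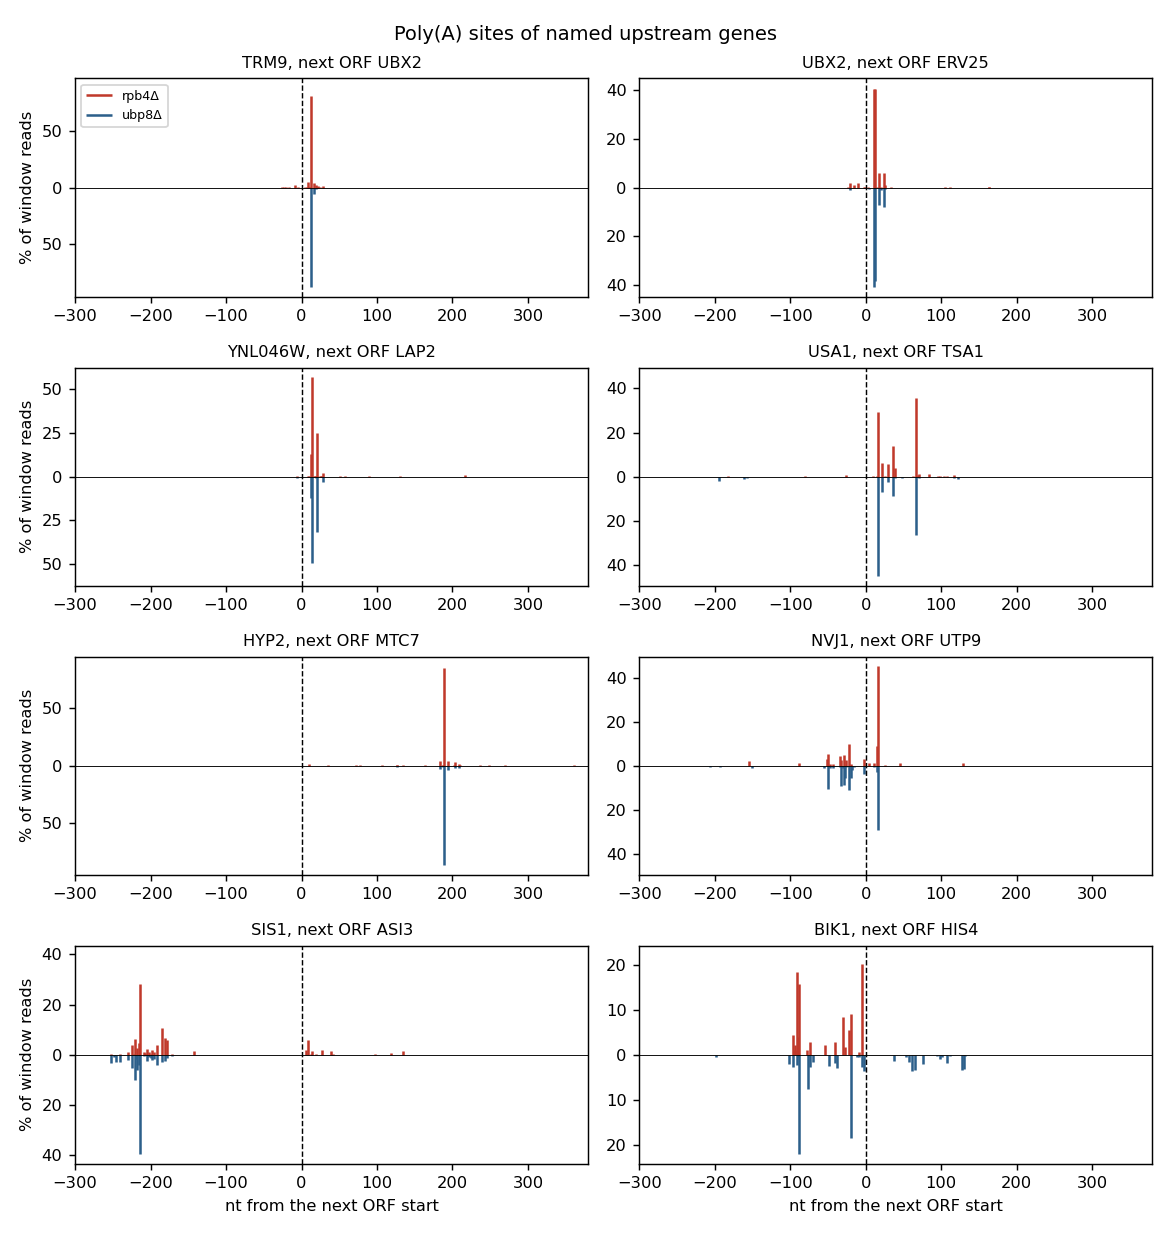
Percent of window reads at each nucleotide (y axis) against its distance from the next ORF start (x axis, nt, dashed line at the start) for 8 upstream genes, with rpb4Δ drawn upwards and ubp8Δ downwards. In TRM9, UBX2, YNL046W, USA1 and HYP2 nearly all signal lies right of the line in both strains, in NVJ1 it is divided, in SIS1 the sites past the start are visible in rpb4Δ only at this scale, and in BIK1 they appear in ubp8Δ only.

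Among pairs whose next ORF fills the window, the 5 with the most reads behaved in the opposite way. RDL1 (YOR285W, chrXV:849635-850054), a thiosulfate sulfurtransferase gene 225 nt before its paralog RDL2, had 6734 RPM in rpb4Δ and 4362 RPM in ubp8Δ. None of its 17033 reads in rpb4Δ and none of its 70985 reads in ubp8Δ lay past the RDL2 start, which allows shares of up to 0.0176% in rpb4Δ and 0.00423% in ubp8Δ. Its leading site lay 63 nt after the stop codon in both strains. RPL28, a ribosomal protein gene, likewise had 0 of 7016 reads in rpb4Δ and 0 of 46981 in ubp8Δ past the start of YGL101W, 265 nt away, with the leading site at 70 nt in both. ILV6, the regulatory subunit of acetolactate synthase, had 1 of 13736 reads in rpb4Δ and 31 of 17575 (0.176%) in ubp8Δ inside SGF29, a SAGA subunit gene 268 nt away. MPC2, a subunit of the mitochondrial pyruvate carrier, had 1 of 5453 reads in rpb4Δ and 0 of 40733 in ubp8Δ inside SOL3. HSP82, an Hsp90 chaperone gene, had 0 of 7911 reads in rpb4Δ and 21 of 23372 (0.0899%) in ubp8Δ inside CIN2.

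A short region did not require late sites. DYN2 (YDR424C, chrIV:1319387-1319841), the dynein light chain gene, lies only 111 nt before CAD1, which encodes an AP-1-like transcription factor. None of its 1335 reads in rpb4Δ or 3857 in ubp8Δ lay past the CAD1 start, which allows up to 0.225% in rpb4Δ and 0.0778% in ubp8Δ, and its leading site lay at 43 nt in both strains. BIO4, the dethiobiotin synthetase gene 52 nt before BIO5, showed the other pattern, with 105 of 111 reads (94.6%, 88.6 to 98.0%) in rpb4Δ and 315 of 388 (81.2%, 76.9 to 85.0%) in ubp8Δ inside BIO5 and the leading nucleotide 37 nt inside it in both strains.

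Upstream genes were also grouped by name. The 11 cytoplasmic ribosomal protein genes stayed before the next start: the highest share was 0.791% in rpb4Δ and 2.96% in ubp8Δ, and none reached 10%. Of the mitochondrial ribosomal protein genes, none of the 12 with at least 20 reads reached 10% in rpb4Δ, and of 13 in ubp8Δ MRPL25 did (10.7%). The 5 proteasome genes had at most 1.76% in rpb4Δ and 1.48% in ubp8Δ. Among 4 translation factor genes, HYP2 reached 10% in rpb4Δ, and HYP2 and the eIF3 subunit gene TIF35 did in ubp8Δ. Of the 7 oxidative phosphorylation genes, 6 had 20 reads in each strain and COX23 alone of these reached 10%, with 38.9% in rpb4Δ and 68.3% in ubp8Δ. Of the secretory and vacuolar sorting genes, VPS60 did among 7 with 20 reads in rpb4Δ, and SEC10, VPS15 and VPS60 did among 10 in ubp8Δ. Over all pairs 14.7% in rpb4Δ and 24.3% in ubp8Δ reached 10%, and with so few genes nothing particular to a group can be read from these counts.

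In the 23 pairs whose next ORF ends inside the window, 61.2% of the reads in rpb4Δ and 76.7% in ubp8Δ lay past its start, and these pairs held 41.1% of all such reads in rpb4Δ and 63.6% in ubp8Δ. They were singled out after their values had been seen. Most of these next ORFs have no standard name. The endochitinase gene CTS1 stands 109 nt before YLR285C-A, and 99.2% of its 5732 reads in rpb4Δ and 99.4% of its 103711 reads in ubp8Δ lay past that start. FKS1, a catalytic subunit of glucan synthase, had 99.7% of 914 reads in rpb4Δ and 99.4% of 10863 in ubp8Δ past the start of YLR342W-A. The vacuolar copper transporter gene CTR2 had 98.9% of 744 reads in rpb4Δ and 99.9% of 10186 in ubp8Δ past the start of YHR175W-A. The myosin chaperone gene SHE4 had 100% of 491 in rpb4Δ and 99.8% of 6158 in ubp8Δ past YOR034C-A, and RCR2, CDC1 and HOF1 also had over 70% in both strains. The ribosomal protein gene RPS10B was different, with 0.763% in rpb4Δ and 2.96% in ubp8Δ, and so was YAP1802, with 13.1% in rpb4Δ and 9.26% in ubp8Δ. Low shares were also found in TRS23 (2.68% in rpb4Δ and 3.83% in ubp8Δ), SMF2 (0.398% in rpb4Δ and 0.576% in ubp8Δ) and MRS1, which had 0 of 214 reads in rpb4Δ and 0 of 1034 in ubp8Δ past the next start. Summed over these pairs, 3.31% of the reads past the start in rpb4Δ and 2.33% in ubp8Δ lay beyond the end of the short ORF. CTS1 held the most reads past the start, 5688 in rpb4Δ and 103060 in ubp8Δ, and weighs most in these sums. RCR2 was different. Its next ORF starts after 27 nt and is 123 nt long, while its highest site lay beyond that ORF, at 359 nt in rpb4Δ and 303 nt in ubp8Δ.

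The 38 pairs with less than 100 nt were a mixed group. In 11 of them both ORFs are classed as Verified in the profiles, in 6 more than 10% of the window is repeated sequence that could not be read uniquely, and 7 had no read in either strain. One of them is YOR302W, 56 nt before CPA1, which was singled out after its values had been seen because YOR302W is the upstream reading frame in the CPA1 mRNA that encodes the arginine attenuator peptide. Its window held 12 of 28 reads (42.9%) past the CPA1 start in rpb4Δ and 50 of 586 (8.53%) in ubp8Δ, so most 3′ ends after this frame lay before CPA1 in ubp8Δ, while 28 reads are few to place them in rpb4Δ.

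Between the strains, most pairs were alike in this share. Over the 576 pairs the median difference, rpb4Δ minus ubp8Δ, was 0 percentage points, and it lay within 1 point in 356 pairs (61.8%). The share was higher in rpb4Δ in 127 pairs, lower in 246 and equal in 203. The lower depth of rpb4Δ leaves more shares of exactly 0 there, and the part of this in these 3 counts was not tested. A difference of at least 10 points was used as a rule of size. It was met upwards in rpb4Δ by 25 pairs (4.34%), against 3.05% of all 1015 same-strand pairs with under 400 nt. It was met downwards by 39 pairs (6.77%), against 5.42% of the same pairs. The tandem pairs are themselves 576 of those 1015, so the 1015 are not a separate background. They were 25 of the 31 pairs that met the rule upwards and 39 of the 55 that met it downwards. The remaining same-strand pairs have longer regions, which leave less of the window past the next start in which to meet the rule. Whether the tandem pairs differ from other pairs in this respect was therefore not tested. At the edge of the rule, CBT1–EMC3 had 10.1% in rpb4Δ and 0.174% in ubp8Δ, a difference of 9.95 points, and ICP55–YER077C had 10.6% in rpb4Δ and 0.232% in ubp8Δ, a difference of 10.4 points. Several of the largest differences rest on few reads, such as POL2–ORC5 with 0 of 24 reads in rpb4Δ and 30 of 46 in ubp8Δ.

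Among pairs with at least 100 reads in both strains and a next ORF that fills the window, 4 had the largest differences upwards in rpb4Δ. NVJ1 (YHR195W), which tethers the nucleus to the vacuole, lies 218 nt before UTP9, a gene of the small-subunit processome. Inside UTP9 lay 170 of 288 reads (59.0%, 53.1 to 64.8%) in rpb4Δ and 935 of 2783 (33.6%, 31.8 to 35.4%) in ubp8Δ, and the same nucleotide, 16 nt inside, led with 45.1% of the reads in rpb4Δ and 29.4% in ubp8Δ. SIS1 (YNL007C), an Hsp40 co-chaperone gene 265 nt before ASI3, had 137 of 839 reads (16.3%, 13.9 to 19.0%) in rpb4Δ and 44 of 6902 (0.637%, 0.464 to 0.855%) in ubp8Δ inside ASI3, while the leading site at 52 nt was the same. The sites before the start were not alike either, since the main site held 28.1% of the reads in rpb4Δ and 39.5% in ubp8Δ. The SIS1 difference was 7.85 points when counted from 10 nt inside ASI3 and 9.42 points with sites of at least 5% of the window, both under the 10 points of the rule. KEL3 had 124 of 356 reads (34.8%) in rpb4Δ and 257 of 1313 (19.6%) in ubp8Δ inside YPL264C, with its leading site at 42 nt in both. BRL1, a nuclear envelope protein gene, had 98 of 141 reads (69.5%) in rpb4Δ and 472 of 853 (55.3%) in ubp8Δ inside the proline catabolism gene PUT2. Its leading nucleotide lay 52 nt inside PUT2 in rpb4Δ (24 reads) and 5 nt inside in ubp8Δ (136 reads). The next highest was nearly equal and the same in both strains. It lay at 212 nt, just before the PUT2 start, with 22 reads in rpb4Δ and 135 in ubp8Δ. Without positions followed by a genomic A, which leaves out most reads over all pairs, the direction turned for KEL3 (−0.413 points) and BRL1 (−27.7 points). With sites of at least 5% of the window the difference was 41.8 points for NVJ1 and 24.7 points for BRL1.

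Another 4 of these pairs had the largest differences downwards. YIL156W-B, 117 nt before the ubiquitin protease gene UBP7, had 73 of 929 reads (7.86%, 6.21 to 9.78%) in rpb4Δ and 1044 of 3081 (33.9%, 32.2 to 35.6%) in ubp8Δ inside UBP7, with the leading site at 80 nt in both. BIK1 (YCL029C), a microtubule plus-end protein gene 265 nt before HIS4, had 0 of 179 reads in rpb4Δ, which allows up to 1.68%, and 164 of 677 (24.2%, 21.0 to 27.6%) in ubp8Δ inside HIS4. HIS4 encodes a histidine biosynthesis enzyme, and its ORF as a whole held 16 reads in rpb4Δ and 1189 in ubp8Δ. The first part covered by the BIK1 window, 135 of 2400 nt, held 13.8% of the HIS4 ORF reads in ubp8Δ. Ends of BIK1 and of HIS4 transcripts cannot be told apart here. YER034W had 385 of 561 reads (68.6%) in rpb4Δ and 3165 of 3584 (88.3%) in ubp8Δ inside EDC2, an activator of decapping, with the leading nucleotide 14 nt inside in both. CAF130, a Ccr4-Not subunit gene, had 9 of 164 reads (5.49%) in rpb4Δ and 166 of 841 (19.7%) in ubp8Δ inside the proteasome gene PRE9. With sites of at least 5% of the window the difference was 0 points for BIK1, −7.62 points for CAF130 and −11.3 points for YIL156W-B, so the first 2 no longer met the rule of 10 points. For YER034W it was 0.584 points, in the other direction, without positions followed by a genomic A. Without those positions the difference was 0 points for CAF130, −42.4 points for YIL156W-B, −69.4 points for BIK1 and 91.7 points for SIS1.

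**Figure D5:**
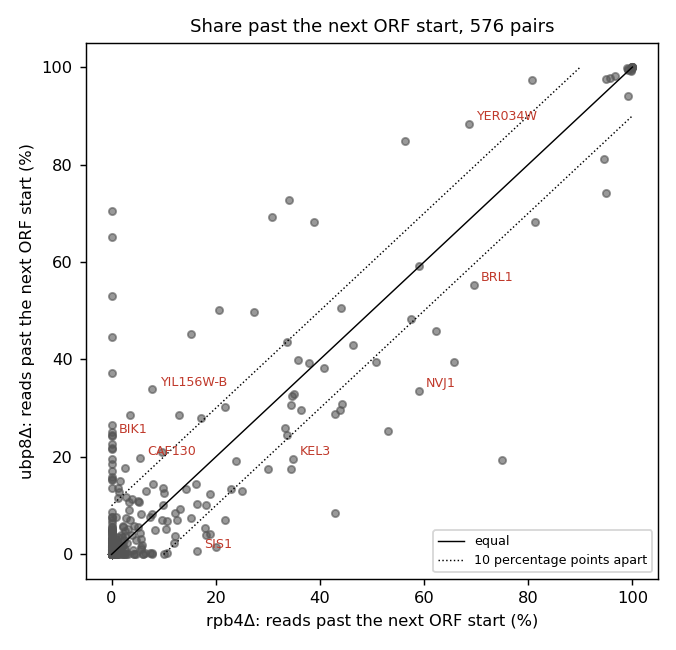
Percent of window reads past the next ORF start in rpb4Δ (x axis) and in ubp8Δ (y axis) for the 576 pairs that reached 20 reads in each strain. The solid line marks equality and the dotted lines 10 percentage points, and the upstream gene is named for the 4 largest differences each way among pairs with at least 100 reads per strain and a next ORF that fills the window. Most points lie near the origin or near 100% in both strains, and a column of points at 0% in rpb4Δ reaches up to 70.5% in ubp8Δ.

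The highest site was often the same nucleotide in both strains. It lay past the next start in 34 of 579 pairs (5.87%) in rpb4Δ and in 73 of 721 (10.1%) in ubp8Δ. Among the 576 shared pairs it lay past the start in both strains in 25, in rpb4Δ only in 9, in ubp8Δ only in 11, and before it in both in 531. It was the same nucleotide in 375 pairs, among them 17 of the 25. In these 25 it lay a median of 31 nt inside the next ORF in rpb4Δ and 23 nt in ubp8Δ. An example of a switch with many reads is LDB7, a subunit gene of the RSC remodeler 220 nt before SLA1, whose highest site lay at 206 nt in rpb4Δ (574 reads) and at 223 nt, just inside SLA1, in ubp8Δ (8750 reads), while the share past the start was 35.9% in rpb4Δ and 39.9% in ubp8Δ.

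The weighted average position lay at least 20 nt further downstream in rpb4Δ in 30 of 576 pairs (5.21%), against 9.06% of all 4248 ORFs. It lay at least 20 nt further upstream in 53 pairs (9.20%), against 10.9% of all ORFs. The median difference, rpb4Δ minus ubp8Δ, was −0.59 nt over the pairs and −0.57 nt over all ORFs.

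Seen from the downstream gene, the reads past the start were a large part of the reads inside its coding sequence only in some pairs. In the 778 pairs whose next ORF fills the window, the part covered by the upstream gene's window made up 12.7% of the summed ORF length. It held 58.0% of the ORF reads in rpb4Δ and 37.5% in ubp8Δ, or 29.8% in rpb4Δ and 18.0% in ubp8Δ without the 10 pairs with the most reads. In the median pair with at least 20 ORF reads, however, it held 6.45% of them over 10.5% of the length in rpb4Δ (187 pairs) and 4.43% over 11.9% of the length in ubp8Δ (584 pairs). Pairs were also divided by the ratio of the downstream to the upstream window reads. A share of at least 10% was found in 8.33% of pairs in rpb4Δ and 14.0% in ubp8Δ where the ratio was below 0.25, in 13.5% in rpb4Δ and 19.3% in ubp8Δ where it was 0.25 to 4, and in 24.4% in rpb4Δ and 42.7% in ubp8Δ where it was above 4. The upstream window reads enter both measures, and the part of this in the relation was not tested.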

How the data were processed

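The authors counted and trimmed the leading Ts of each read, aligned the following 17 bases to SacCer3 with bowtie, requiring perfect and unique matches, kept only reads whose As are not all encoded in the genome, and pooled 2 replicates per strain. At each position of the window the deposited value is a percent of that of the highest position. The deposited window, highest-position and ORF values are in RPM, and how the authors scaled them is not given in the sources used here. Whole reads were recovered from the step of the highest-position values, 0.395 RPM in rpb4Δ and 0.0614 RPM in ubp8Δ: 100% of 4611 and 4917 values below 60 RPM were whole within 0.1 read. That a step is 1 read rests on the values alone. The windows of all ORFs held 1977159 reads in rpb4Δ and 13034210 in ubp8Δ, and depth is 6.59 times lower in rpb4Δ.

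Regions, shares, intervals (95%) and expected numbers of sites at the lower depth (rarefaction formula) were computed with scipy 1.17.1, pandas 2.3.3 and numpy 2.4.6 under Python 3.11.15, and plots were made in matplotlib 3.10.9. The functions were checked on simulated data. Coordinates are those of the profiles, and 5787 of the 5795 ORFs whose name is in RefSeq have identical ones in R64. NET-seq data of other strains were not analysed here.

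The members, lists and rules were chosen with earlier results of these data known. Pairs named had at least 100 reads in both strains and a next ORF filling the window (371 pairs): the 6 with the largest mean share past the next start, the 5 with the most RPM, the 4 with the largest difference each way and the 4 with the shortest regions, of which only 3 had under 100 nt. Other pairs were named after their values had been seen. No member holds UBP8, RPB4, RPB3, HIS3 or RPO21. Alternatives changed the site threshold, boundary, pairs, read minimum and treatment of genomic As, and a read test (Fisher's exact test, two-sided, Benjamini-Hochberg adjusted) and the restriction to Verified ORFs were added after seeing the data.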

Additional observations from a re-analysis of the deposited data

How the results depend on the processing

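No paired analysis was possible because the 2 replicates of each strain are pooled in 1 profile, and for the same reason no replicate could be left out. The pooled share past the next start was 6.89% in rpb4Δ and 12.4% in ubp8Δ with sites of at least 1% of a window, 6.90% in rpb4Δ and 12.3% in ubp8Δ with sites of at least 5%, and 6.67% in rpb4Δ and 12.3% in ubp8Δ counted from 10 nt inside the next ORF. It was 4.36% in rpb4Δ and 5.18% in ubp8Δ without next ORFs that end inside the window, 33.6% in rpb4Δ and 49.1% in ubp8Δ for regions of 0 to 200 nt, and 8.15% in rpb4Δ and 18.6% in ubp8Δ without positions followed by a genomic A. It was 3.89% in rpb4Δ and 4.07% in ubp8Δ with both ORFs Verified, a restriction chosen after seeing the data, and 12.6% in ubp8Δ at a minimum of 100 reads per strain. The median share in ubp8Δ was 0% under both site thresholds and without positions followed by an A, and 0.146% at 100 reads. For 0 to 200 nt the median was 1.57% in rpb4Δ and 13.0% in ubp8Δ. The highest site lay past the start in 21 pairs in rpb4Δ and 20 in ubp8Δ at 100 reads, in 66 in rpb4Δ at 1 read, in 44 in ubp8Δ for 0 to 200 nt, and in 38 in ubp8Δ with Verified ORFs. The weighted average in ubp8Δ was 89.4 nt for 0 to 200 nt, 100.7 nt without positions followed by an A and 99.6 nt at 1 read. Pairs at least 10 points higher in rpb4Δ numbered 10 for 0 to 200 nt, 11 at 100 reads and 49 at 1 read, and pairs at least 10 points lower numbered 12, 7 and 76 under the same settings and 61 without positions followed by an A. The number of pairs tested depends on the read minimum and the region length. The shares over all same-strand pairs under these settings are not given here, so these counts are not a result about the members. The read test, added after seeing the data, compares the pooled libraries only. Of the 576 members tested it called 51 higher and 58 lower in rpb4Δ, and of all 1015 pairs, members included, it called 142. It treats reads as independent, which PCR copies are not, so these calls are not a result about the strains. Sites per 100 nt before the start numbered 2.96 in rpb4Δ and 3.35 in ubp8Δ at 1% and 1.55 in rpb4Δ and 1.62 in ubp8Δ at 5%. Past it they numbered 0.443 in rpb4Δ and 0.817 in ubp8Δ at 1% and 0.220 in rpb4Δ and 0.331 in ubp8Δ at 5%, and at the rpb4Δ depth 4.62 before and 1.11 past the start were expected in ubp8Δ. Leaving out positions followed by an A drops 81.4% of the reads before and 78.2% of those past the start in rpb4Δ, and 79.9% before and 68.7% past it in ubp8Δ. The difference between the strains then changed sign in KEL3 (−0.413 points), BRL1 (−27.7 points) and YER034W (0.584 points). The cause of the other shifts was not tested.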
